A study of Mus musculus with 12 samples.

Results

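The 36 genes described here mark the mesenchyme and smooth muscle of the yolk sac: smooth muscle contractile and actin-binding proteins, transcription factors of extraembryonic mesoderm and mesothelium, platelet-derived growth factor signalling genes, and matrix and surface proteins of mesenchymal cells. They were chosen by name, with earlier results of these data known, and all 36 were among the 18193 genes measured. Where a gene had several probe sets, the 1 with the highest 12-array mean was used, and 27 of the 36 lay above the median gene, whose mean log2 value was 6.52.

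RNA from pooled mouse yolk sacs was hybridised to Affymetrix whole-genome mouse arrays, single-colour arrays that read each transcript with 1 or more sets of short probes. The 4 groups were Hypb-/- (knockout) and Hypb+/+ (wild type) yolk sacs at E10.5, and Hypb-/- and Hypb+/+ yolk sacs at E9.0, where E counts days of embryonic development. Each group held 3 arrays, each array came from a pool of 4 yolk sacs of 1 genotype, and the strain of every group was 129Sv/C57BL/6. Hypb is the older name of Setd2, which encodes the methyltransferase for lysine 36 of histone H3. A pool averages over embryos, so differences between single embryos were not seen here, and the labels name no promoter or Cre driver.

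The yolk sac wall is an outer visceral endoderm over an inner layer of extraembryonic mesoderm, which holds the vessels, the blood cells, a mesothelium and a mesenchyme that can take on smooth muscle character around vessels. Smooth muscle genes such as Acta2, Tagln and Cnn1 are classical targets of serum response factor (SRF), a transcription factor that binds the CArG box and works with cofactors of the myocardin family. Their products assemble actin filaments with myosin and give the cell contractile force. Platelet-derived growth factor B from endothelium recruits mural cells that carry its receptor Pdgfrb, while Pdgfra marks more general mesenchyme.

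The 4 promoters below are printed because they hold the CArG-type sequences found among the 36 genes: Acta2, which was higher in the E10.5 knockout, and Myl9, Cnn2 and Srf, which were not called there. Each is the 250 bases before the start of the gene in RefSeq (GRCm38.p6), 5′ to 3′ on the gene's strand, with CArG boxes and CArG boxes with 1 inner letter G or C in capitals.
Acta2 promoter, chr19:34255374-34255623, strand -: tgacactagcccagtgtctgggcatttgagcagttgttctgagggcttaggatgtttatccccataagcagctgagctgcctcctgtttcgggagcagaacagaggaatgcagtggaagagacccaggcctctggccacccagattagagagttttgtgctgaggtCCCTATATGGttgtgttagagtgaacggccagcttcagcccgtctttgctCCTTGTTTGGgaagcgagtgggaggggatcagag
Myl9 promoter, chr2:156775214-156775463, strand +: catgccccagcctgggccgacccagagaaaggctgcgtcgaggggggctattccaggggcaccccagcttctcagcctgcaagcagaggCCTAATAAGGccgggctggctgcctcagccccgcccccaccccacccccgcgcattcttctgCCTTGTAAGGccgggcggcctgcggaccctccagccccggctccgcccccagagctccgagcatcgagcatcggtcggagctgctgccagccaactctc
Cnn2 promoter, chr10:79988350-79988599, strand +: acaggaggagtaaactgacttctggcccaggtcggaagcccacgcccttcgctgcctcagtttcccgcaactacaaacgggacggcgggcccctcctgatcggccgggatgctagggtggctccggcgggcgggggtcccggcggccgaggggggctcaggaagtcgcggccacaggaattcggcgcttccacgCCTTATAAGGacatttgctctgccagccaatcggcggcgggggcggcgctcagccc
Srf promoter, chr17:46556163-46556412, strand -: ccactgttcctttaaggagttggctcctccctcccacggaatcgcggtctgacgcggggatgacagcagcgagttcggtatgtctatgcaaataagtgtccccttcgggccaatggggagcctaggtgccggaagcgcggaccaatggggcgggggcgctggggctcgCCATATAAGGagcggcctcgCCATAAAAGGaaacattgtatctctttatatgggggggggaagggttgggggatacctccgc
Promoters were matched for 22 of the 36 genes, which had 24 promoters, and the other 14 genes were not searched. The CArG box, which reads the same on both strands, was present in 3 of these 24 (12.5%), against 482 of 32851 mouse promoters of the same length (1.47%). The looser form with 1 inner G or C stood in 2 of 24 (8.3%), against 2380 of 32851 (7.24%). The Acta2 promoter held only the looser form, CCCTATATGG at 84 and CCTTGTTTGG at 34 bases before the start. Myl9 had a CArG box (CCTAATAAGG) at 161 bases and a looser one (CCTTGTAAGG) at 99 bases. A CArG box stood at 56 bases in Cnn2 (CCTTATAAGG), and Srf itself had a pair of them, CCATATAAGG at 82 and CCATAAAAGG at 62 bases. These are matches of letters and not measured binding sites. The 36 genes were chosen by name and include classical SRF targets, so their share of CArG boxes is not a test.

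Setd2 was lower on every knockout array. Its log2 values were 7.77, 7.81 and 8.07 in E10.5 knockout and 8.77, 8.70 and 8.66 in E10.5 wild type yolk sacs, and 7.54, 7.99 and 7.53 in E9.0 knockout and 9.08, 9.03 and 8.83 in E9.0 wild type yolk sacs. Array values carry no read depth, and the small number of arrays limits their precision. Replicate 3 stood apart at both stages in the array controls: at E10.5 the dap spike had a 3′ minus 5′ difference of 1.87 (knockout) and 1.85 (wild type), while the remaining 4 arrays had 1.23 to 1.44, and at E9.0 BioC exceeded BioB by -0.04 (knockout) and 0.04 (wild type), with 1.40 to 1.58 elsewhere. Replicate 3 was therefore treated as a batch, which the labels do not name, but only in alternative fits. The main fit held no term for it. Replicate 3 holds both genotypes, and values within replicates 1 and 2 are given where a genotype call changes or its sign turns.

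At E10.5 the knockout yolk sacs had more transcript of 10 of the 36 genes and less of 0. The 10 were Acta2, the smooth muscle actin, the actin-binding proteins Tagln, Tpm1, Cald1 and Flna, the transcription factors Msx2 and Wt1, the intermediate filament Vim, the matrix protein Tgfbi and the cell adhesion protein Cdh2. Their log2 changes ran from 0.53 to 1.38. The test was limma with Benjamini-Hochberg adjustment over all 18193 genes and a threshold of 0.05, by which 4.12% of all genes were higher, 3.16% were lower and 7.28% changed in either direction. At an unadjusted p under 0.05, 13 of the 36 were higher and 0 lower, against 20.2% of all genes in either direction. The median change of the 36 was 0.22, against -0.01 over all genes, and 29 of 36 changes lay above 0, against 47.0% of all genes. The knockout arrays all lay above the wild type arrays for 11 of the 36 genes and all below for 1, against 11.5% and 11.3% of all genes. In pooled tissue, more cells of a type and more RNA per cell cannot be told apart.

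**Figure D1:**
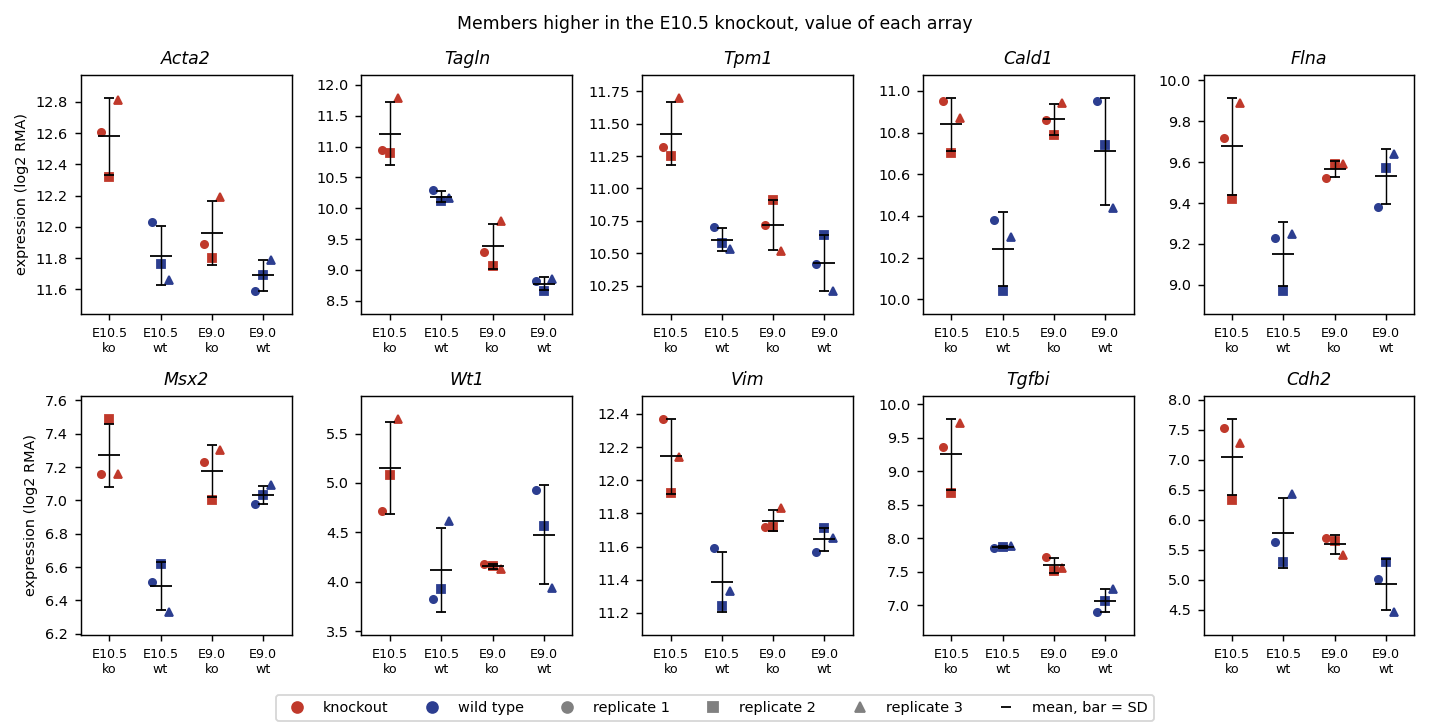
Log2 RMA expression (y axis) on each array for the 10 genes higher in the E10.5 knockout. Red is knockout, blue is wild type, the symbol gives the replicate, and the line and bar are the mean and SD of 3 arrays; each panel has its own y range. All E10.5 knockout arrays lie above all E10.5 wild type arrays for 9 of the 10 genes, and Cdh2 overlaps.

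**Figure D2:**
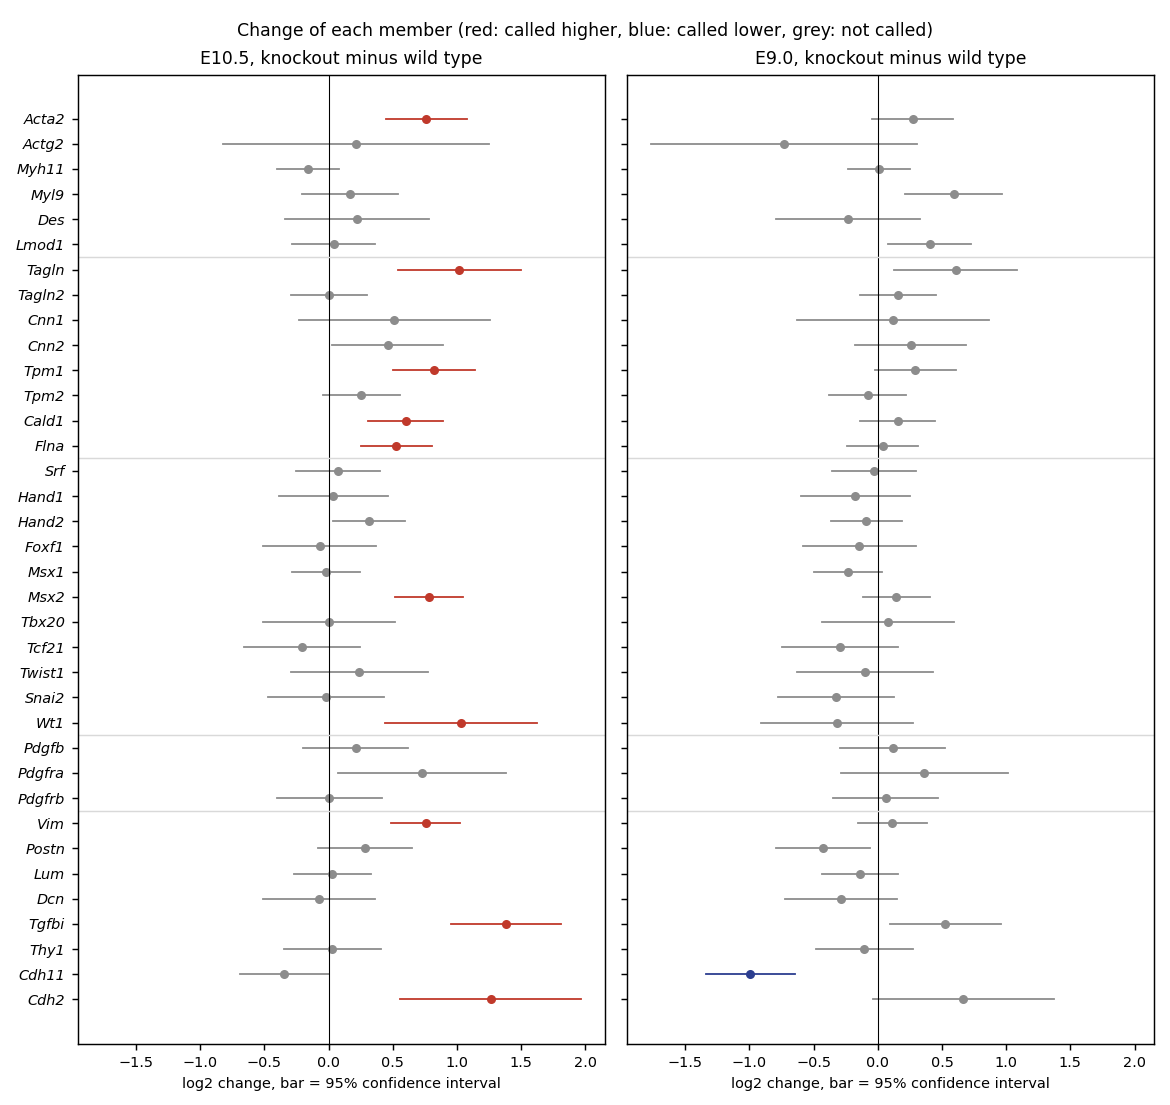
Log2 change, knockout minus wild type, of each of the 36 genes at E10.5 (left) and E9.0 (right), with 95% confidence intervals; grey lines part the 5 role groups. Red and blue mark genes higher or lower at an adjusted p under 0.05: 10 and 0 at E10.5, 0 and 1 at E9.0.

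Among the 6 contractile proteins, 1 passed the test (16.7%), against 7.28% of all genes in either direction. Acta2 had 12.61, 12.32 and 12.81 in E10.5 knockout yolk sacs and 12.03, 11.76 and 11.66 in wild type yolk sacs. The groups did not overlap, and the change was 0.76 (SE 0.15), or 1.70-fold, with an adjusted p of 0.00786 in limma. Leaving out any 1 of the 6 E10.5 arrays gave changes from 0.65 to 0.89, each past the threshold. The other 5, which encode a further smooth muscle actin, the myosin chains, an intermediate filament and an actin nucleator, had changes from -0.16 (Myh11) to 0.22 (Des).

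Actg2, the enteric form of smooth muscle actin, had 7.10, 7.11 and 9.57 in the E10.5 knockout and 7.78, 7.77 and 7.59 in the wild type. A single knockout array, replicate 3, was high and the other 2 lay below every wild type array. The change over all arrays was 0.21 (SE 0.48, adjusted p 0.867 in limma). Without E10.5 knockout replicate 3 it was -0.61 (adjusted p 0.0139), and within replicates 1 and 2 it was -0.67 (adjusted p 0.0268). Cnn1, the actin- and calmodulin-binding calponin of differentiated smooth muscle, was also highest on that array, with 5.09, 4.83 and 6.65 against 5.01, 4.90 and 5.12 in the wild type. Its change of 0.51 (SE 0.34, adjusted p 0.466 in limma) did not pass. Myl9, the regulatory light chain of smooth muscle myosin, had 9.62, 9.65 and 10.36 against 9.76, 9.64 and 9.73 and a change of 0.17 (SE 0.17, adjusted p 0.682 in limma). Myh11, the smooth muscle myosin heavy chain and the most specific marker of mature smooth muscle, had 5.23, 5.32 and 5.00 against 5.42, 5.38 and 5.23. It lay below the median gene on every array, with a change of -0.16 (SE 0.11, adjusted p 0.491 in limma).

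Of the 8 actin-binding proteins, 4 were higher (50%, against 4.12% of all genes) and the other 4 did not pass, with a median change of 0.52. Tagln, the cytoskeletal protein transgelin, had 10.94, 10.90 and 11.79 in the knockout and 10.29, 10.11 and 10.17 in the wild type. The groups did not overlap, and the change of 1.02 (SE 0.22, 2.03-fold, adjusted p 0.0148 in limma) was the largest of these 8. Without wild type replicate 2 its adjusted p was 0.0614. Tpm1, a tropomyosin that runs along actin filaments, had 11.32, 11.25 and 11.70 against 10.70, 10.58 and 10.53, a change of 0.82 (SE 0.15, adjusted p 0.00538 in limma). It passed with any 1 array left out. Cald1, the caldesmon that restrains actomyosin, had 10.95, 10.70 and 10.87 against 10.38, 10.04 and 10.30, and Flna, which crosslinks actin, had 9.72, 9.42 and 9.89 against 9.23, 8.97 and 9.25. Neither gene's groups overlapped, and the changes were 0.60 (SE 0.13, adjusted p 0.0181 in limma) and 0.53 (SE 0.13, adjusted p 0.0258). With 1 array left out, Cald1 missed the threshold without knockout replicate 1 or wild type replicate 2 (adjusted p up to 0.0865). Flna missed it without knockout replicate 1 or 3 or wild type replicate 1 or 2 (up to 0.117), and it also missed the threshold within replicates 1 and 2 (0.47, adjusted p 0.0772). The 4 that did not pass were Cnn1, Cnn2 (0.46, adjusted p 0.213), Tpm2 (0.26, adjusted p 0.333) and Tagln2 (0.003, adjusted p 0.992).

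Replicate 3 of the E10.5 knockout was the highest of its group for 5 of 6 contractile and 7 of 8 actin-binding genes, and for 21 of all 36, against 37.2% of all genes. The median change of the 36 genes was 0.07 within replicates 1 and 2 and 0.51 in replicate 3. Within replicates 1 and 2, 9 of the 36 remained higher, all but Flna of the 10, and Actg2 was the 1 lower. The changes that lay above 0 numbered 22 of 36 there, against 29 over all arrays. The sign turned for 12 genes, none of them among the 10: within replicates 1 and 2 the change was -0.67 for Actg2, -0.065 for Myl9, -0.05 for Des, -0.21 for Lmod1, -0.09 for Tagln2, -0.03 for Hand1, -0.12 for Pdgfb, -0.23 for Pdgfrb and -0.035 for Thy1, and 0.125 for Msx1, 0.065 for Snai2 and 0.09 for Dcn. That of Cnn1 was 0.005, against 0.51 over all arrays. With the replicate number within stage as a block, 10 of the 36 were higher at E10.5. What set replicate 3 apart was not tested.

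Transcription factors were higher in 2 of 11 cases (18.2%, against 4.12% of all genes) and lower in 0 (against 3.16%), with a median change of 0.04. Msx2, a homeobox factor and target of bone morphogenetic protein signalling, had 7.16, 7.49 and 7.16 in the knockout and 6.51, 6.62 and 6.33 in the wild type. The groups were well apart, the change was 0.78 (SE 0.12, adjusted p 0.00213 in limma), and it passed with any 1 array left out. Wt1, a zinc finger factor of mesothelium, was dim, with 4.72, 5.08 and 5.65 against 3.82, 3.93 and 4.61. Its change of 1.03 (SE 0.27, adjusted p 0.0394 in limma) left no overlap between the groups, but it missed the threshold without knockout replicate 2 or 3 or wild type replicate 1 or 2 (adjusted p up to 0.149). Hand1, a bHLH factor needed for yolk sac vessels and extraembryonic mesoderm, had 7.12, 7.12 and 7.06 against 7.27, 7.03 and 6.89, and its change was 0.04 (95% confidence interval -0.39 to 0.46). Foxf1, the forkhead factor of extraembryonic and splanchnic mesoderm, had 8.0, 7.68 and 8.69 against 8.14, 8.10 and 8.34, and its change was -0.07 (interval -0.51 to 0.37). Both intervals span 0. Srf had 7.15, 7.19 and 7.56 against 7.12, 7.22 and 7.33, with overlapping groups and a change of 0.08 (interval -0.25 to 0.40). Hand2, Tbx20, Tcf21, Twist1, Snai2 and Msx1 lay between -0.20 (Tcf21) and 0.32 (Hand2, adjusted p 0.180), and none passed.

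None of the 3 platelet-derived growth factor genes passed, against 7.28% of all genes in either direction. Pdgfra, the receptor of general mesenchyme, had 9.49, 9.41 and 9.34 in the knockout and 9.03, 8.16 and 8.86 in the wild type. The groups did not overlap, yet the change of 0.73 had an SE of 0.30 and an adjusted p of 0.190 in limma. Pdgfrb, the mural cell receptor, had 7.68, 6.99 and 7.72 against 7.67, 7.46 and 7.24 and a change of 0.01 (interval -0.40 to 0.42). Its ligand Pdgfb had 6.79, 6.70 and 7.58 against 6.83, 6.90 and 6.70. That ligand was again highest on replicate 3 of the knockout, with a change of 0.21 (adjusted p 0.612).

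Of the 8 matrix, surface and filament genes, 3 were higher (37.5%) and 0 lower, against 4.12% and 3.16% of all genes. At an unadjusted p under 0.05 the lower count over all 36 genes was also 0. Tgfbi, a secreted matrix protein induced by TGF-beta, had 9.36, 8.68 and 9.72 in the knockout and 7.85, 7.87 and 7.89 in the wild type. Its change was 1.38 (SE 0.20, 2.61-fold, adjusted p 0.00133 in limma), the largest of the 36 genes, and the lowest knockout array stood well above the highest wild type array. Vim, the intermediate filament of mesenchymal cells, had 12.37, 11.92 and 12.14 against 11.59, 11.24 and 11.33. The change was 0.76 (SE 0.12, adjusted p 0.00323 in limma), and both Tgfbi and Vim passed with any 1 array left out. Cdh2, N-cadherin, had 7.53, 6.33 and 7.28 against 5.62, 5.30 and 6.43, the 1 called gene whose groups overlapped. Its change was 1.26 (SE 0.33, adjusted p 0.0344 in limma), and it missed the threshold without knockout replicate 1 or 3 or wild type replicate 1 or 2 (adjusted p up to 0.147). Matrix genes with high values did not pass: Postn had a log2 difference of 0.29 (adjusted p 0.391), and the small proteoglycans Lum and Dcn had 0.03 and -0.07. Cdh11, a cadherin of mesenchyme, had 9.22, 8.82 and 9.11 in the knockout against 9.40, 9.29 and 9.49 in the wild type, every knockout array below every wild type array, but its change of -0.34 (SE 0.16) had an adjusted p of 0.254 in limma. Thy1, a surface glycoprotein, was dim on all arrays, with a change of 0.03.

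Other probe sets of the called genes mostly had changes of the same sign. Of the 10 genes, 7 had further probe sets, 16 in all, and 15 of these 16 had a positive change. They were tested in a fit of their own, with p adjusted over all 34945 probe sets with 1 gene symbol, in which 9 of the 16 passed. In that fit 9 of the 10 sets used were called, and that of Wt1 had an adjusted p of 0.0545. Tgfbi's 3 further sets gave changes from 1.28 to 1.47, and all 3 passed. Vim's gave 0.48 and 0.55, and neither passed (adjusted p 0.0772 and 0.0696 in limma). These Vim sets were bright, with 12-array means of 11.69 and 11.32, against 11.73 for the set used. Cald1 varied most, with 1.25, 0.95 and 0.64 and, on a dim set, -0.10. Msx2's further set, dim with a 12-array mean of 2.99, gave 0.08, beside 0.78 for the set used. The further Tpm1 sets gave 1.31, 0.63 and, on a dim set (mean 3.05), 0.16.

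**Figure D3:**
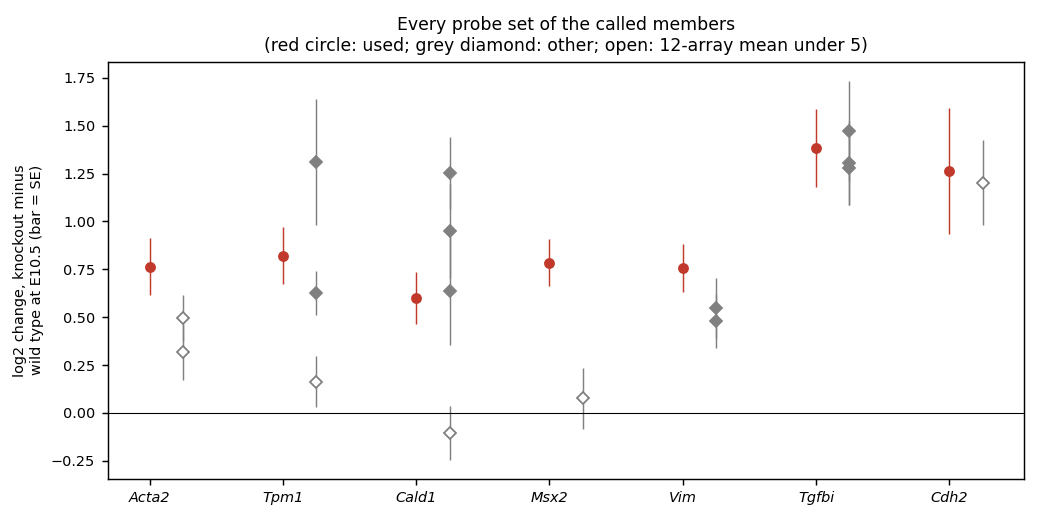
Log2 change, knockout minus wild type at E10.5 (y axis, bars are SE), of every probe set of the 7 called genes with several. Red circles are the sets used, grey diamonds the others, and open symbols dim sets; 15 of 16 other sets lie above 0.

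Further genes of the same functions were read from lists of their own. Among 30 smooth muscle and SRF target genes outside the 36, 9 were higher and 0 lower in the E10.5 knockout, against 4.12% and 3.16% of all genes. Their median change was 0.29, and 1 was lower at an unadjusted p under 0.05. Ankrd1, Ccn2, Ccn1 and Nexn had the smallest p of these. Ankrd1, a stretch- and YAP-responsive gene, had 8.54, 7.72 and 8.98 in the knockout and 5.12, 5.37 and 5.08 in the wild type, a change of 3.22 (SE 0.27, adjusted p 4.4e-05 in limma). The matricellular Ccn2 had 9.50, 9.48 and 10.02 against 7.66, 7.63 and 7.38, a change of 2.11 (SE 0.26, adjusted p 0.000553 in limma), and its relative Ccn1 changed by 1.48 (SE 0.18, adjusted p 0.000436). Nexn, an actin-associated protein, changed by 1.12 (SE 0.15, adjusted p 0.000787 in limma). These 4 did not overlap between the groups and passed under every alternative tried. Ankrd1, Ccn1 and Ccn2 are known as targets of YAP with TEAD factors as well as of SRF. Of the 7 measured SRF cofactors and regulators, 0 passed limma's test, and 1 was higher and 1 lower at an unadjusted p under 0.05, a threshold passed by 20.2% of all genes. Mrtfb, a cofactor that actin releases to the nucleus, had 9.41, 9.20 and 9.29 against 9.03, 9.13 and 8.72 (change 0.34, adjusted p 0.119), while Mrtfa had a difference of -0.07 and the muscle-specific cofactor Myocd, dim on all arrays, of -0.10.

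Of 24 further regulators of extraembryonic mesoderm and mesenchyme, 4 were higher and 0 lower, against 4.12% and 3.16% of all genes. Their median change was 0.28, and 0 were lower at an unadjusted p under 0.05 too. Tbx18, a T-box factor of mesothelium and mural cells, had 5.71, 4.27 and 5.03 in the knockout and 3.23, 3.25 and 3.60 in the wild type, a change of 1.64 (SE 0.28, adjusted p 0.00405 in limma). The homeobox factor Prrx2 had 6.07, 6.18 and 6.34 against 4.94, 4.81 and 5.27, a change of 1.19 (SE 0.19, adjusted p 0.00257 in limma). Zeb2, a zinc finger repressor of epithelial genes, changed by 1.16 (adjusted p 0.0289) and Meis2 by 0.48 (adjusted p 0.0283). Each of these 4 had knockout arrays that all lay above the wild type arrays. Of 12 further mesothelial genes, 4 were higher and 0 lower (again 0 lower at an unadjusted p under 0.05): Aldh1a2, which makes retinoic acid (1.40, adjusted p 0.0237 in limma), the keratin Krt19 (1.11, adjusted p 0.00862), Lrrn4 (0.61, adjusted p 0.0317) and Bnc1 (0.57, adjusted p 0.0495). The uroplakins Upk1b and Upk3b, also on this list, did not pass. Their E10.5 means were 7.96 and 9.32 in the knockout and 8.22 and 9.38 in the wild type. Over the 12 mesothelial genes the changes ran from -0.26 (Upk1b) to 1.40, with a median of 0.20. Of these 12 changes 9 lay above 0, against 47.0% of all genes. The knockout arrays lay all above the wild type arrays for 6 and all below for 1, against 11.5% and 11.3% of all genes. Of 4 further platelet-derived growth factor genes, Pdgfa was higher (0.41, SE 0.11, adjusted p 0.0378 in limma). Pdgfd was lower, with 4.89, 4.73 and 5.10 in the knockout and 5.49, 5.48 and 6.03 in the wild type (change -0.76, SE 0.17, adjusted p 0.0181 in limma). Of these further genes, Tbx18, Prrx2 and Krt19 passed under every alternative tried. Single alternatives, among them leaving out 1 array, ended the call of Aldh1a2 and Pdgfd (5 each), of Zeb2, Meis2 and Lrrn4 (6 each), of Bnc1 (8) and of Pdgfa (10), out of 13 or 14.

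Markers of other cells were compared at E10.5 as well. Of 19 heart muscle genes, 7 were higher and 0 lower in the E10.5 knockout, against 4.12% and 3.16% of all genes. Their median change was 0.44, and 0 were lower at an unadjusted p under 0.05. The cardiac myosin light chain Myl7 had 9.33, 7.52 and 8.07 against 5.24, 4.93 and 5.12, Myl4 changed by 2.11, Tnnt2 by 1.92 and Nppb by 0.90. The cardiac factor Nkx2-5 had 4.96, 5.03 and 4.92 against 5.05, 4.99 and 5.00 and a change of -0.04. Summed over the list, the anti-logged level of the heart genes ran from 1855 to 3541 in the knockout and from 1091 to 1182 in the wild type. It was highest in knockout replicate 1 (3541), not in replicate 3 (2529), and replicate 3 was the highest of its group for 2 of 19 heart genes. The summed level of the 6 contractile genes ran from 6196 to 9451 in the knockout and from 4416 to 5418 in the wild type. This sum mainly followed Acta2, the brightest of the 6. Their mean log2 value overlapped between the groups, with 7.62, 7.61 and 8.37 in the knockout and 7.73, 7.68 and 7.56 in the wild type. The summed level of the 8 actin-binding genes ran from 9672 to 13915 in the knockout and from 7145 to 7888 in the wild type. Without knockout replicate 1, 7 of the 36 genes were higher. The part of heart tissue in the results on the 36 genes was not tested.

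Endothelial genes were higher in 4 of 18 cases (Fli1, Pecam1, Icam2 and Robo4, from 0.54 to 1.04) and lower in 0, visceral endoderm genes lower in 2 of 15 (Alb -2.22 and Cubn -0.36) and higher in 0, and primitive red cell genes lower in 2 of 11 (Epb42 -1.25 and Rhd -0.78) and higher in 0. The median changes of these lists were 0.42, -0.33 and -0.38, and limma called 4.12% of all genes higher and 3.16% lower. At an unadjusted p under 0.05 the same counts were 9 and 0, 6 and 0, and 4 and 0, against 20.2% of all genes in either direction. The summed endothelial level was 4219 to 5528 in the knockout and 3285 to 4225 in the wild type, and that of visceral endoderm 96332 to 104106 and 107440 to 112641. Of 12 macrophage and blood progenitor genes, 4 were higher (Mpo 1.56, Csf1r 0.79, Cx3cr1 0.65 and Tyrobp 0.48) and 1 lower (Fcgr3 -1.82). Among 10 skeletal muscle genes Tnni2 was higher (0.67), among 12 neural genes Sox11 (2.47) and Crabp1 (2.30) were higher, among 10 genes of embryonic body wall Lhx2 was higher (0.52), and none of 7 trophoblast and decidua genes passed limma's test (1 higher at an unadjusted p under 0.05). The trophoblast and decidua list holds Dcn, 1 of the 36 genes, and Bmp2, which is also on the list of mesoderm regulators. The part of all these other cells in the results on the 36 genes was not tested.

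**Figure D4:**
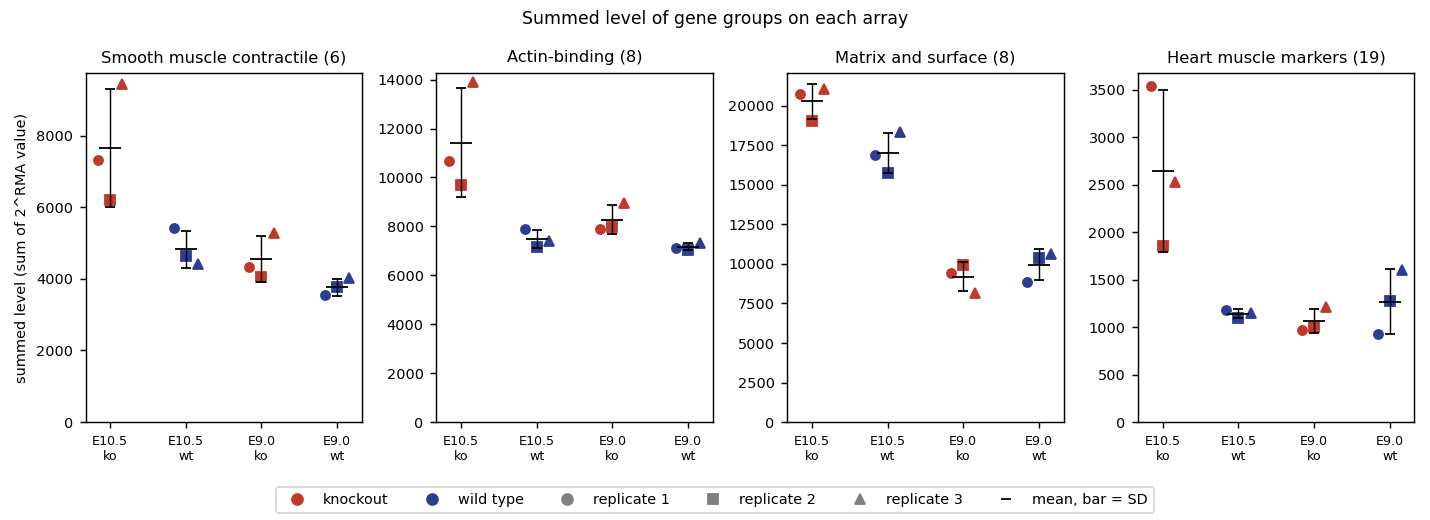
Summed anti-logged RMA level (y axis, from 0) of 4 gene groups on each array, with the number of genes in brackets. Red is knockout, blue is wild type, symbols give the replicate, and the line and bar are the mean and SD of 3 arrays. The contractile and actin-binding sums are highest in E10.5 knockout replicate 3 (9451 and 13915), the heart muscle sum in E10.5 knockout replicate 1 (3541). The contractile sum mainly follows Acta2, the brightest of its genes.

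At E9.0, a stage at which the design text reports no severe visible defect in the knockout, 0 of the 36 genes were higher and 1 was lower in the knockout, against 0.55% and 0.632% of all genes (1.18% in either direction). At an unadjusted p under 0.05, 4 of the 36 were higher (Myl9, Lmod1, Tagln and Tgfbi) and 2 lower (Postn and Cdh11), against 11.8% of all genes in either direction. The median change of the 36 was 0.02. The 1 gene called was Cdh11, with 8.0, 8.25 and 7.57 in the knockout and 8.78, 8.98 and 9.04 in the wild type. Its groups did not overlap, and its change was -0.99 (SE 0.16, adjusted p 0.0176 in limma). It missed the threshold without knockout replicate 1 or wild type replicate 2 (adjusted p up to 0.0766), and missed the threshold within replicates 1 and 2 as well (-0.76, adjusted p 0.0811). Within replicates 1 and 2 the sign turned for Cald1 (-0.02), Hand2 (0.025), Pdgfra (-0.18) and Lum (0.095), none of them called.

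Several of the genes that were higher at E10.5 had all E9.0 knockout arrays above the E9.0 wild type arrays without passing the test. Tagln had 9.29, 9.07 and 9.79 in the E9.0 knockout and 8.82, 8.66 and 8.85 in the wild type (change 0.61, SE 0.22, adjusted p 0.258 in limma). Tgfbi had 7.72, 7.51 and 7.56 against 6.90, 7.07 and 7.24 (change 0.53, SE 0.20, adjusted p 0.280 in limma). Acta2 had 11.89, 11.80 and 12.19 against 11.59, 11.69 and 11.79 (change 0.27, SE 0.15, adjusted p 0.524 in limma). Over the 36 genes, 7 had knockout arrays all above (Acta2, Myl9, Lmod1, Tagln, Vim, Tgfbi and Cdh2) and 3 all below (Actg2, Msx1 and Cdh11), against 8.56% and 9.42% of all genes. Myl9 had 8.38, 8.29 and 8.66 in the E9.0 knockout and 7.72, 7.89 and 7.95 in the wild type. Its change of 0.59 (SE 0.17, adjusted p 0.140 in limma) was larger than its E10.5 change of 0.17, and the difference between the stages was -0.42 (adjusted p 0.713).

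Among the further genes, Ankrd1 was higher at E9.0 as well, with 5.61, 6.28 and 6.15 in the knockout and 4.33, 4.82 and 4.69 in the wild type (change 1.40, SE 0.27, adjusted p 0.0291 in limma, and up to 0.108 under the alternatives, of which 6 of 13 kept the call). It was the 1 of 30 smooth muscle and SRF target genes called, against 1.18% of all genes in either direction. Pdgfd was lower at E9.0 as well, with 3.74, 4.13 and 3.59 against 4.84, 4.75 and 4.62 (change -0.92, SE 0.17, adjusted p 0.0278 in limma, and up to 0.131, with the call kept in 6 of 13). None of the 7 SRF cofactors and regulators, 24 mesoderm regulators, 12 mesothelial genes or 19 heart muscle genes passed limma's test at E9.0. At an unadjusted p under 0.05 these lists had 0, 1, 3 and 5 genes in either direction, against 11.8% of all genes. The summed heart level was 969 to 1208 in the E9.0 knockout and 926 to 1605 in the E9.0 wild type, so that the wild type held the highest array there.

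The knockout effect was tested for a difference between the stages, E10.5 minus E9.0. None of the 36 genes passed limma's test of this difference, against 0.187% of all genes, and 11 of the 36 had an unadjusted p under 0.05, against 8.3% of all genes. The median difference was 0.34, and it was above 0 for 30 of 36 genes, against 49.6% of all genes. Msx2 had the smallest p, with a difference of 0.64 (SE 0.17, adjusted p 0.201 in limma). The largest difference was that of Wt1, 1.35 (SE 0.39, adjusted p 0.252). Its values at E9.0 were 4.18, 4.16 and 4.13 in the knockout and 4.93, 4.56 and 3.94 in the wild type, dim in both. Wt1 passed the test of this difference with the replicate number within stage as a block (1.35, adjusted p 0.0433) and within replicates 1 and 2 (1.60, adjusted p 0.0402). In the fit over all arrays, genes called at E10.5 and not at E9.0 are therefore not shown to differ between the stages.

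With stage, E10.5 against E9.0, 16 of the 36 genes were higher and 1 lower in the knockout, and 8 were higher and 4 lower in the wild type. Over all genes 14.4% were higher and 9.17% lower with stage in the knockout (23.6% in either direction), and 13.4% and 8.86% in the wild type (22.2%). All 8 genes that rose in the wild type rose in the knockout too: the matrix genes Dcn, Postn, Lum and Tgfbi, the smooth muscle genes Tagln, Myl9 and Tpm2, and Tcf21, a bHLH factor of mesothelium-derived mesenchyme. The median stage change was 0.42 in knockout and 0.07 in wild type yolk sacs, against 0.03 over all genes in each. With each array centred on its median, the median of the 36 was 0.29 in knockout and turned to -0.03 in wild type yolk sacs, against -0.10 and -0.07 over all genes.

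Dcn had the largest change in the wild type, 1.97 (SE 0.20, adjusted p 3.88e-05 in limma), and changed by 2.19 (SE 0.20, adjusted p 2.22e-05) in the knockout. Lum, the other small proteoglycan, had 12.91, 12.93 and 12.94 in the E10.5 knockout against 11.92, 11.96 and 11.42 in the E9.0 knockout, and 12.91, 12.83 and 12.95 in the E10.5 wild type against 11.70, 11.99 and 12.03 in the E9.0 wild type. The stages did not overlap for Lum in either genotype, and its changes were 1.16 and 0.99. Postn, a matrix protein that binds integrins, had 12.35, 12.40 and 12.56 against 10.52, 10.80 and 10.11 in the knockout, a change of 1.96, and 12.04, 12.02 and 12.39 against 10.67, 10.99 and 11.05 in the wild type, a change of 1.25. Myl9 changed by 1.43 and 1.86 and Tagln by 1.83 and 1.41 in knockout and wild type. Tcf21 changed by 1.46 and 1.37, Tgfbi by 1.66 and 0.80, and Tpm2 by 0.87 and 0.53 in the same order.

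The other 8 genes called higher with stage in the knockout were Actg2 (2.27), Cdh2 (1.46), Cdh11 (1.11), Wt1 (0.99), Tpm1 (0.71), Acta2 (0.62), Hand2 (0.45) and Vim (0.39). Their wild type changes were 1.33, 0.86, 0.46, -0.36, 0.18, 0.13, 0.05 and -0.26 in that order, and none passed in the fit over all arrays and genes. In the wild type Actg2 passed within replicates 1 and 2 (adjusted p 0.000741), with only genes above the median level (0.0487) and with only the groups compared (0.000404). Cdh11 passed there with means of all probe sets (adjusted p 0.00785), further quantile normalisation (0.0460), only genes above the median level (0.0400) and only the groups compared (0.0144). Wt1 was lower with stage in the wild type within replicates 1 and 2 (-0.87, adjusted p 0.00673 in limma). Within these replicates the stage change of Actg2 was 1.43 in knockout and 1.35 in wild type yolk sacs. In the knockout the calls of Hand2 and Vim were lost within replicates 1 and 2 and with means of all probe sets. Both were also lost with median centring and with only the groups compared. Hand1 was lower with stage in both genotypes, by -0.63 (adjusted p 0.0346) in the knockout and -0.84 (adjusted p 0.00820) in the wild type. Its values were 7.12, 7.12 and 7.06 at E10.5 against 7.46, 7.57 and 8.16 at E9.0 in the knockout. Msx2, Cald1 and Flna were lower with stage in the wild type, by -0.55 (adjusted p 0.00615), -0.47 (adjusted p 0.0243) and -0.38 (adjusted p 0.0493) in limma. Their knockout changes were 0.09, -0.02 and 0.11 and did not pass. For these 3, all E10.5 wild type arrays lay below all E9.0 wild type arrays, while the E10.5 and E9.0 knockout arrays overlapped. The stage comparisons use the same E10.5 arrays as the E10.5 genotype comparison, so genes called in both are not independent results.

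For 30 of the 36 genes the stage change was larger in the knockout than in the wild type. This is the same contrast as the difference of the knockout effect between stages, which none of the 36 genes passed. In single leave-one-out fits the stage calls of Hand1, Hand2, Wt1 and Vim in the knockout and of Tpm2, Cald1, Flna and Tgfbi in the wild type were lost, and the other 13 and 8 were kept. With each array centred on its median, 14 of the 36 genes were higher and 4 lower in the knockout (Hand1, Lmod1, Foxf1 and Pdgfrb), and 8 higher and 6 lower in the wild type. Over all genes it moved the share of calls that were higher to 35.0% in knockout and 41.5% in wild type yolk sacs, against 61.1% and 60.1% as deposited. Foxf1 had stage differences of -0.48 and -0.55 in knockout and wild type as deposited and passed in neither. In limma's fit over all probe sets, the genes called with stage in the knockout had 20 further sets, of which 20 kept the sign and 8 passed. In the wild type 13 of 14 kept it and 5 passed. Vim's further sets gave 0.21 and 0.17 in the knockout, and neither passed, nor did the set used (adjusted p 0.0517). Further sets of some genes not called did pass. Myh11's second set, dim, was higher with stage in the wild type (0.77, adjusted p 0.00462), as was Cdh11's, also dim (0.84, adjusted p 0.00693). Srf's second set was lower with stage in both genotypes (-0.55, adjusted p 0.0361, and -0.51, adjusted p 0.0485).

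**Figure D5:**
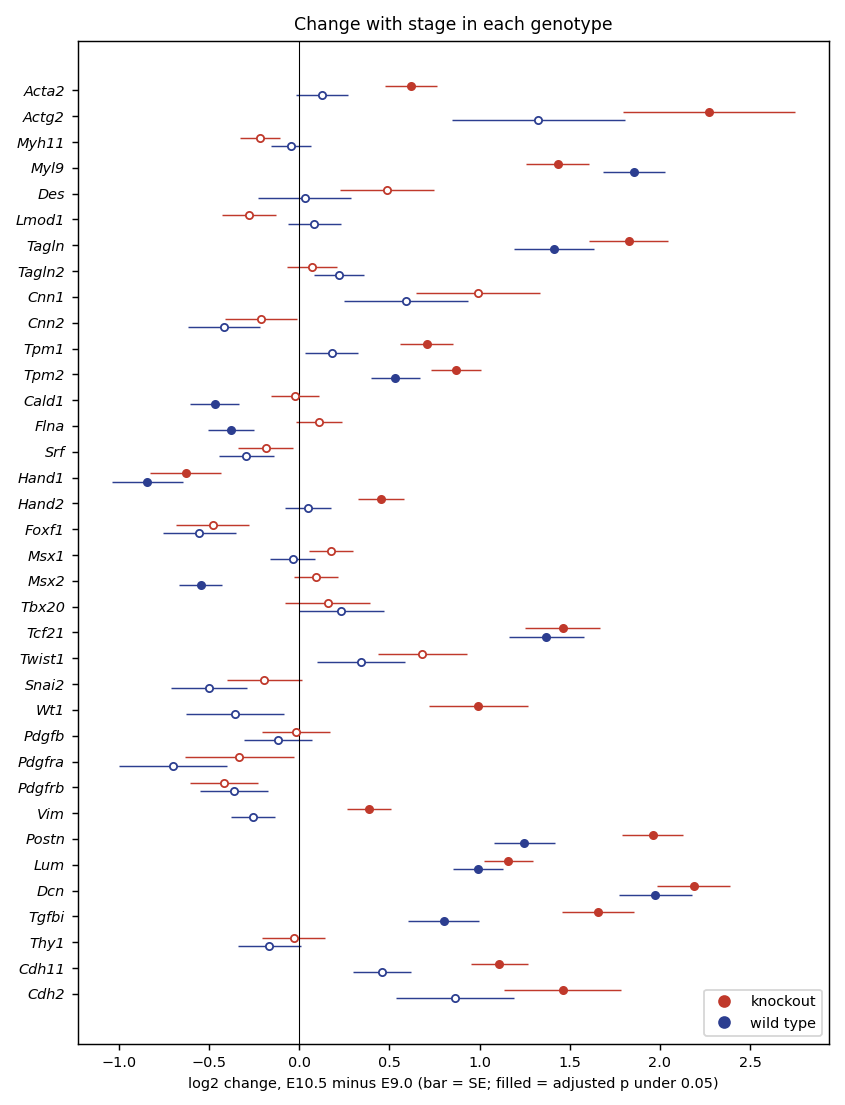
Log2 change from stage, E10.5 minus E9.0 (x axis, bars are SE), of each of the 36 genes in knockout (red) and wild type (blue). Filled circles have an adjusted p under 0.05; 17 are filled in knockout and 12 in wild type yolk sacs, and the red circle lies right of the blue one for 30 genes.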

How the data were processed

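The deposited values are the authors' log2 RMA expression values, per the submitters' processing notes. This method corrects background, brings arrays to a common distribution and summarises probes, so a change shared by all transcripts is removed and dim probe sets are compressed towards 0. RMA's version is not given in the sources used here. Groups and replicate numbers came from the sample titles. Of 45101 probe sets, 64 controls were left out, and the 34945 with 1 gene symbol in the platform annotation gave 18193 genes. Per gene the probe set with the highest 12-array mean was used.

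All 12 arrays entered 1 linear model of the 4 group means in limma 3.58.1 (R 4.3.3), with empirical Bayes moderation (8 residual and 4.56 prior degrees of freedom), two-sided tests and Benjamini-Hochberg adjustment over all genes. The code was tested on simulated data. The design text calls the 3 arrays of a group biological repeats. Genotype comparisons at the 2 stages share no arrays, but the difference between stages uses all 12. Each stage comparison reuses arrays of both genotype comparisons.

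All 36 genes could be named. Of each other list, all called genes were named where 5 or fewer passed, and otherwise up to 4 by smallest p. Nkx2-5, Mrtfb, Mrtfa, Myocd, Bmp2, the stage change of Ccn2 and the E10.5 values of Upk1b and Upk3b were named outside this rule, after their values were seen. The 36 genes and the lists were chosen with earlier results of these data known. Summed levels add 2 to the power of each log2 value and follow the brightest genes. List genes without a probe set of their own were not analysed here. Alternatives were another normalisation, array centring, probe set means, other variance models, fewer arrays and replicate blocks.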

Additional observations from a re-analysis of the deposited data

Results flagged for a closer look

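The knockout effect differed between the stages for 3 of the genes named above, all markers of other cells and none of the 36, by limma's test of the difference over all genes. Tnnt2, cardiac troponin T, had 7.16, 5.37 and 6.17 in the E10.5 knockout and 4.43, 4.12 and 4.39 in the E10.5 wild type, and 4.82, 5.27 and 5.07 in the E9.0 knockout and 5.47, 6.25 and 6.54 in the E9.0 wild type. Its change was 1.92 at E10.5 and -1.03 at E9.0, a difference of 2.95 (SE 0.51, adjusted p 0.0436 in limma). Alb, the albumin of endoderm and liver, had 5.27, 6.11 and 6.10 in the E10.5 knockout and 8.07, 7.87 and 8.19 in the E10.5 wild type, and was dim in both E9.0 groups. The difference of its changes was -2.27 (SE 0.31, adjusted p 0.00987 in limma). Tyrobp, a signalling adaptor of macrophages, changed by 0.48 at E10.5 and -0.61 at E9.0, a difference of 1.09 (SE 0.18, adjusted p 0.0363 in limma). Its arrays did not overlap between genotypes at either stage. The test of the difference was passed under all 18 alternatives for Alb, 6 of 18 for Tnnt2 and 8 of 18 for Tyrobp.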

How the results depend on the processing

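Results on the 36 genes were recomputed under each alternative. Further quantile normalisation, a trended and robust variance and a filter to genes above the median level left every count of calls within 1.5 times. Within replicates 1 and 2, the E10.5 knockout had 9 higher and 1 lower with a median change of 0.0725, the E9.0 knockout 0 lower, the difference between stages 1 higher (Wt1, 1.60, adjusted p 0.0402) with a median of 0.22, and the knockout stage comparison 2 lower. Fitting only the groups compared gave 7 higher at E10.5 (Flna, Wt1 and Cdh2 lost) and 0 lower at E9.0. Median centring gave 4 lower and a median of 0.29 for stage in the knockout, and means of all probe sets a median of 0.24 there. Actg2 at E10.5 turned to -0.67 within replicates 1 and 2 and to -0.61 without knockout replicate 3, the lowest of a leave-one-out range that reached 0.6267. Myh11 with stage in the wild type turned to 0.36 with means of all probe sets, its second set being the one that rose. Centring also moved the higher share of calls at E9.0 to 56.5%, against 46.5%. The other causes were not tested.

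Leaving out 1 array at a time gave 5 to 10 higher and 0 to 1 lower at E10.5, with medians from 0.0658 to 0.34. The low count of 5 came without wild type replicate 2, and the low median and the 1 lower gene without knockout replicate 3. Acta2, Tpm1, Msx2, Vim and Tgfbi passed in all of these fits. At E9.0 the lower count was 0 to 1, with 0 without knockout replicate 1 or wild type replicate 2. The difference between stages had 0 to 1 higher (Tgfbi, without E10.5 knockout replicate 2) and medians from 0.2008 (without E10.5 knockout replicate 3) to 0.4133. With stage the knockout had 14 to 17 higher and 0 to 2 lower (0 without E9.0 knockout replicate 3 or E10.5 knockout replicate 1 or 2, 2 without E10.5 knockout replicate 3), and the wild type 7 to 9 higher and 2 to 3 lower (2 without replicate 2 of either stage). The stage calls lost with 1 array left out were, in the knockout, Hand1 (E9.0 replicate 3, any E10.5 array), Hand2 (E9.0 replicate 3, E10.5 replicate 1), Wt1 (E9.0 replicate 2 or 3, E10.5 replicate 3) and Vim (any E9.0 array, E10.5 replicate 1 or 3), and, in the wild type, Tpm2 (replicate 2 of either stage), Cald1 (E9.0 replicate 1 or 2, E10.5 replicate 2), Flna (E9.0 replicate 2 or 3, any E10.5 array) and Tgfbi (E9.0 replicate 1).

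Same-numbered arrays of the 2 genotypes did not all deviate together: their correlations were 0.255, 0.067 and 0.401 at E10.5 and 0.034, 0.225 and 0.241 at E9.0. Since not every pair exceeded 0.1, the numbers were not taken to pair the arrays throughout. Replicate 3 of both genotypes, the batch described above, had the highest of these same-number correlations at each stage. At E9.0 it was not the highest of all pairs, as knockout replicate 1 and wild type replicate 2 had 0.26. A replicate block left 1 lower at E9.0 and 10 higher at E10.5, gave 1 higher for the difference between stages (Wt1, 1.35, adjusted p 0.0433), and, added after seeing the data with numbers shared across stages, 18 higher and 1 lower with stage in the knockout and 8 higher and 8 lower in the wild type.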

Other observations

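The further genes of the same functions were also compared between the stages. Over all genes 14.4% were higher and 9.17% lower with stage in the knockout, and 13.4% and 8.86% in the wild type. Of 30 smooth muscle and SRF target genes outside the 36, 8 were higher (26.7%) and 5 lower (16.7%) with stage in the knockout. In the wild type 2 were higher (6.67%) and 7 lower (23.3%). Those with the smallest p in the knockout were Ankrd1 (2.40), the actin-associated Nexn (1.08), the tropomyosin Tpm3 (-0.54) and the immediate early gene Fos (1.32). Those in the wild type were Tpm3 (-0.59), the LIM-domain genes Fhl1 (-0.87) and Fhl2 (0.69), and vinculin, Vcl (-0.60). Ccn2 was lower with stage in the wild type by -1.26 (adjusted p 0.00443 in limma), with 7.66, 7.63 and 7.38 at E10.5 against 9.26, 8.75 and 8.43 at E9.0. Its knockout arrays overlapped between the stages. The 30 genes were also tested for a different stage change between the genotypes. Of these, 0 passed limma's test, against 0.187% of all genes. At an unadjusted p under 0.05 there were 9, all positive, against 8.3% of all genes.

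Mesothelial genes were called with stage in both genotypes. In the knockout 5 of 12 were higher (41.7%) and 1 lower (8.33%), against 14.4% and 9.17% of all genes. In the wild type 4 were higher (33.3%) and 2 lower (16.7%), against 13.4% and 8.86% of all genes. The uroplakins Upk1b (1.53 in knockout, 1.01 in wild type yolk sacs) and Upk3b (1.38 and 1.15) and the zinc finger factor Bnc1 (0.92 and 0.53) were higher in both, and the sialomucin Podxl (-0.93 and -0.94) was lower in both. Of 4 further platelet-derived growth factor genes, 3 were higher with stage in the knockout (Pdgfc 1.41, Pdgfd 1.09 and Pdgfa 0.49) and 1 in the wild type (Pdgfd 0.93). Of 24 mesoderm and mesenchyme regulators, 6 were higher (25%) and 3 lower (12.5%) in the knockout and 3 higher (12.5%) and 5 lower (20.8%) in the wild type. The counts at 12.5% lay near the shares over all genes. Wnt2, a signal of lung and vascular mesoderm, was higher in both genotypes (1.90 and 1.29). Heart muscle genes were higher with stage in 8 of 19 cases in the knockout and lower in 2 of 19, Tnnt2 (-1.77) and Myl7 (-1.68), in the wild type. The part of heart tissue in these stage changes was not tested.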
